A study of Mus musculus with 12 samples.

Results

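The genes described here are 10 marker genes of homeostatic microglia, the resting state of the resident macrophages of retina and brain. They were taken from the table of read counts by gene name, as P2ry12, P2ry13, Gpr34, Csf1r, Selplg, Siglech, Tmem119, Fcrls, Olfml3 and Sall1, which makes 10 of the 21930 genes in that table. Each of the 10 had a row, and each passed the filter on low counts in every comparison. The libraries came from wild type mice, 3 for each of 4 groups. AL + PBS mice had free access to food (ad libitum, AL) and received PBS. AL + NaIO3 mice had free access to food and received one intraperitoneal dose of 25 mg/kg sodium iodate, an oxidant that damages the retinal pigment epithelium (RPE). IF + PBS and IF + NaIO3 mice received the same injections during intermittent fasting (IF), in which food was given on alternate days. The methods describe male C57BL/6J mice that were 8 weeks old when a diet of 12 weeks began, a diet kept up after injection, and tissue taken 7 days after it. The samples are labelled as a complex of RPE, choroid and sclera. The labels do not say that each replicate was a separate mouse, so the p-values measure the spread between these libraries, which may be partly technical.

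Microglia survey neural tissue through fine processes, and their resting state depends on signals through the CSF1 receptor and on TGF-beta. Genes of this state include receptors for nucleotides and lipids released by neighbouring cells, surface lectins and adhesion molecules, and the transcription factor Sall1, which keeps microglia distinct from other macrophages. After injury microglia are known to lower many of these genes while they raise phagocytic and inflammatory ones. Several of the 10 genes are not restricted to microglia: Csf1r and Selplg are used by many myeloid cells, Siglech by plasmacytoid dendritic cells, and Olfml3 and Sall1 by some cells outside the immune system. In bulk tissue, fewer cells of a type and less RNA per cell cannot be told apart.

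The libraries held between 26364665 and 43046950 counts. Photoreceptor genes were abundant in each library, with Gnat1, the alpha subunit of rod transducin, between 3163 and 10893 CPM (counts scaled to the size of each library, with TMM factors), so neural retina was present in tissue labelled as RPE, choroid and sclera. The methods describe the tissue as eye cup, without saying that the retina was removed. Figure legends of the paper speak of retinas for these data. The layer from which the reads of the 10 genes came was not determined. One library, AL + NaIO3 replicate 3, stood apart. Its summed CPM over 20 genes that microglia share with other macrophages was 1406, against 389 and 261 in replicates 1 and 2. Its summed CPM over 10 genes of stroma and sclera was 1500, against 234 and 128, and over 12 photoreceptor genes 20701, against 67101 and 39358. The main values that rest on AL + NaIO3 are therefore also given without it.

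The 10 genes were low in this tissue. Per length, on the FPKM scale, Csf1r, the receptor for the growth factors CSF1 and IL-34, was highest in AL + PBS at 3.84 ± 0.29 (SD, n = 3). Selplg, the ligand of P-selectin, followed at 1.54 ± 0.18 FPKM. The libraries of Csf1r overlapped with those of no other gene, while those of Selplg overlapped with Tmem119 and P2ry12 though not with Olfml3. Olfml3, a secreted glycoprotein, had 1.22 ± 0.064 FPKM, Tmem119, a membrane protein that marks parenchymal microglia, 1.20 ± 0.45, and P2ry12, the ADP receptor that directs microglial processes towards injury, 1.16 ± 0.45. The lower places were taken by Gpr34 (0.80 ± 0.44), Siglech (0.61 ± 0.30), P2ry13 (0.47 ± 0.16), Fcrls (0.39 ± 0.17) and Sall1 (0.31 ± 0.052). From Olfml3 downwards, neighbours in this order overlapped in their libraries. Read counts ranged from 570 to 2163 per library for Csf1r but from 17 to 104 for Siglech, 27 to 126 for P2ry13, 27 to 84 for Sall1 and 11 to 643 for Fcrls, so counting error is relatively larger for the last 4 genes. How much of the spread between libraries it makes up was not determined.

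The file coordinates of the 10 genes overlapped their RefSeq positions on GRCm38 in 10 of 10 cases and their GENCODE positions on GRCm39 in 0 of 10. P2ry12 (chr3:59216272-59262871) and P2ry13 (chr3:59207892-59210882) are neighbours on the minus strand, both inside Med12l, which is read from the plus strand. Of 3206 exon bases of P2ry12 in GENCODE, 294 are shared with Med12l, and of 3303 for P2ry13, 0 are. Gpr34 (chrX:13632089-13640858) lies inside Cask on the opposite strand with 0 shared exon bases, and Csf1r shares 1461 of its 7361 exon bases with Hmgxb3. Whether reads were counted by strand is not stated, so the counts of P2ry12 and Csf1r may hold reads of these neighbours. Med12l had between 609 and 1230 counts per library and Hmgxb3 between 1214 and 1935.

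The bases before the starts are shown for Olfml3, whose libraries separated after NaIO3, and for P2ry13, whose libraries did not. Neither gene was called, and the genes were not tested against each other. In Olfml3 the AL + NaIO3 libraries stood above AL + PBS, and in P2ry13 they overlapped. Both windows are on the minus strand of chromosome 3 (RefSeq, GRCm38.p6), at chr3:103738007-103738251 for Olfml3 and chr3:59210884-59211132 for P2ry13. Capitals mark AGGAAG, read on either strand, the core of the site bound by PU.1, the ETS factor on which macrophages and microglia depend.
Olfml3: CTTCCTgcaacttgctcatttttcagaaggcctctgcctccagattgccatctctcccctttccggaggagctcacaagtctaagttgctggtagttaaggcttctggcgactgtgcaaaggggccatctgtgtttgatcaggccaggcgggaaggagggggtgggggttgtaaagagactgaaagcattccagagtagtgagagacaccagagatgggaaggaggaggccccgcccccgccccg
P2ry13: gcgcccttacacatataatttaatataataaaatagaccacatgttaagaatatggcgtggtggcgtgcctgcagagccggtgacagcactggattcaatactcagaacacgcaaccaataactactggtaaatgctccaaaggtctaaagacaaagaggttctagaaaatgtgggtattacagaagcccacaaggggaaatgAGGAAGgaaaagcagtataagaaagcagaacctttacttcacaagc
Each window held AGGAAG 1 time, far from the start in Olfml3 and close to it in P2ry13. Of the 10 genes, 6 had a window in the RefSeq table, with 8 windows in all because Sall1 has 3 starts. Within 250 bases before a start, 5 of these 8 windows (62.5%) held AGGAAG, 1 each of Fcrls, Olfml3, P2ry12, P2ry13 and Sall1, against 29.5% of all 32851 windows of that length. The longer GAGGAAGT was in 2.44% of all windows and in 0 of the 6 genes. A match is a description of letters and not a bound site.

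The comparison of AL + NaIO3 with AL + PBS addresses the injury in freely fed mice. None of the 10 genes passed the test (edgeR quasi-likelihood, adjusted p below 0.05 with a fold change of 1.5 or more), against 12 of 15612 genes tested (0.0769%). At an unadjusted p under 0.05 there were 5 of 10, against 10.2% of all genes, and these 5, Tmem119, Fcrls, Olfml3, Csf1r and Selplg, were also the 5 whose AL + NaIO3 libraries were all above AL + PBS (9.95% of all genes stood higher in this way). The fitted log2 fold change was above 0 for 8 of 10 genes, against 52.3% of all genes, with a median of 0.86 against 0.014 over all genes. Without AL + NaIO3 replicate 3 the median was 0.47 in a fit of 5 libraries and 0.48 in a fit of 11, which called 0 of the 10 genes and 0.789% of all genes.

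**Figure D1:**
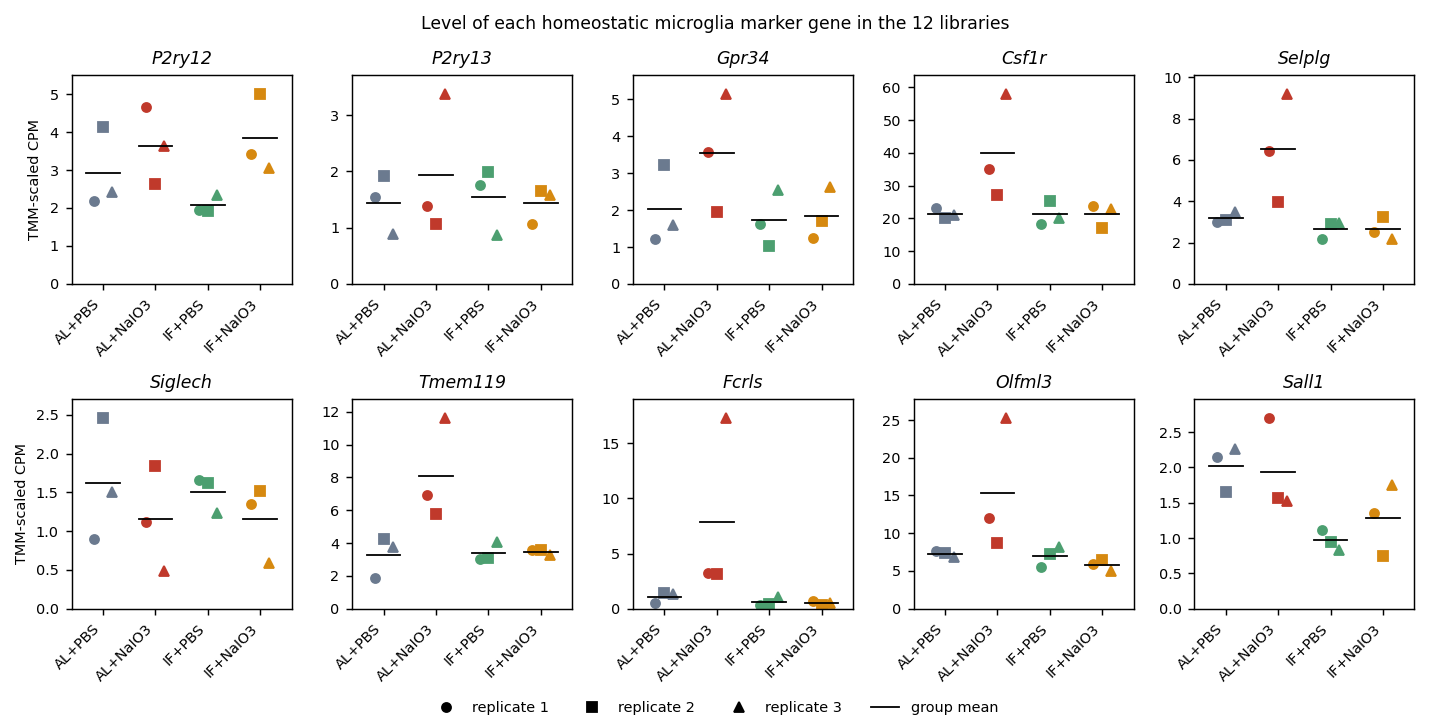
Level of each of the 10 genes in TMM-scaled CPM (vertical axis, linear, from 0) in the 12 libraries, with groups along the horizontal axis, symbols for replicates and a line at each group mean. AL + NaIO3 replicate 3 was the highest of its group for 7 of 10 genes, but not for P2ry12, Siglech or Sall1.

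Fcrls, a scavenger receptor of the Fc receptor-like family and one of the most microglia-restricted surface genes in mouse brain, had the largest difference of the 10. It was measured at 3.24, 3.16 and 17.3 CPM in AL + NaIO3 and at 0.55, 1.42 and 1.34 CPM in AL + PBS. Replicate 3 stood far above the others of its group, and the groups did not overlap. The log2 fold change was 2.84 (SE 0.77, adjusted p = 0.285), and 1.54 (SE 0.54, adjusted p = 0.252) in a fit of 11 libraries without replicate 3. DESeq2 was the other tool run, and it called Fcrls as higher (adjusted p = 0.0043) and none of the other 9, with 2.64% of all genes called. That call was lost without replicate 3 (log2 fold change 1.54, adjusted p = 0.0749), where DESeq2 called 2.21% of all genes.

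Tmem119 was at 6.93, 5.76 and 11.6 CPM in AL + NaIO3 and at 1.86, 4.25 and 3.77 CPM in AL + PBS, a log2 fold change of 1.30 (SE 0.41, adjusted p = 0.335). Olfml3 was at 12.04, 8.70 and 25.2 CPM against 7.60, 7.42 and 6.85 CPM, a log2 fold change of 1.08 (SE 0.38, adjusted p = 0.388). In both genes the lowest injured library was above the highest control, by a narrow margin for Olfml3. Csf1r was at 35.1, 27.0 and 58.1 CPM against 23.1, 20.1 and 21.2 CPM, a log2 fold change of 0.91 (SE 0.27, adjusted p = 0.319). Selplg was at 6.45, 3.94 and 9.21 CPM against 2.98, 3.12 and 3.47 CPM, a log2 fold change of 1.04 (SE 0.35, adjusted p = 0.371). Each of these differences was smaller without replicate 3, at 0.95, 0.52, 0.54 and 0.71 on the log2 scale for Tmem119, Olfml3, Csf1r and Selplg, with adjusted p between 0.217 and 0.351 in the fit of 11 libraries.

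The nucleotide and lipid receptors did not separate the groups. P2ry12 was at 4.65, 2.63 and 3.63 CPM in AL + NaIO3 and at 2.18, 4.13 and 2.42 CPM in AL + PBS (log2 fold change 0.32, SE 0.38, adjusted p = 0.815). P2ry13, which also responds to ADP, was at 1.38, 1.07 and 3.38 CPM against 1.54, 1.91 and 0.88 CPM (log2 fold change 0.43, SE 0.55), and its difference was -0.24 in the fit of 11 libraries. Gpr34, a receptor for lysophosphatidylserine, was at 3.56, 1.95 and 5.16 CPM against 1.22, 3.24 and 1.60 CPM (log2 fold change 0.82, SE 0.51, adjusted p = 0.618). In all 3 receptors at least 1 control library was above at least 1 injured library.

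Sall1 and Siglech were the genes with fitted differences below 0. Sall1 was at 2.70, 1.56 and 1.53 CPM in AL + NaIO3 and at 2.15, 1.65 and 2.26 CPM in AL + PBS (log2 fold change -0.06, SE 0.39, adjusted p = 0.974). Siglech, a lectin that binds sialic acid, was at 1.12, 1.85 and 0.48 CPM against 0.90, 2.46 and 1.51 CPM (log2 fold change -0.50, SE 0.60, adjusted p = 0.818). Both groups overlapped in each gene.

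The comparison of IF + NaIO3 with AL + NaIO3 addresses whether fasting altered the state after injury. It uses the same AL + NaIO3 libraries as the comparison above, so the values below are not a second measurement of the same difference. None of the 10 genes passed the edgeR test, against 0.0383% of all genes (6 of 15648). At an unadjusted p under 0.05 there were 5 of 10 (11.7% of all genes), and in the same 5 genes the IF + NaIO3 libraries were all below AL + NaIO3 (10.5% of all genes). The log2 fold change was above 0 for 2 of 10 genes, against 48.1% of all genes, and the median was -0.94, or -0.67 without AL + NaIO3 replicate 3.

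**Figure D2:**
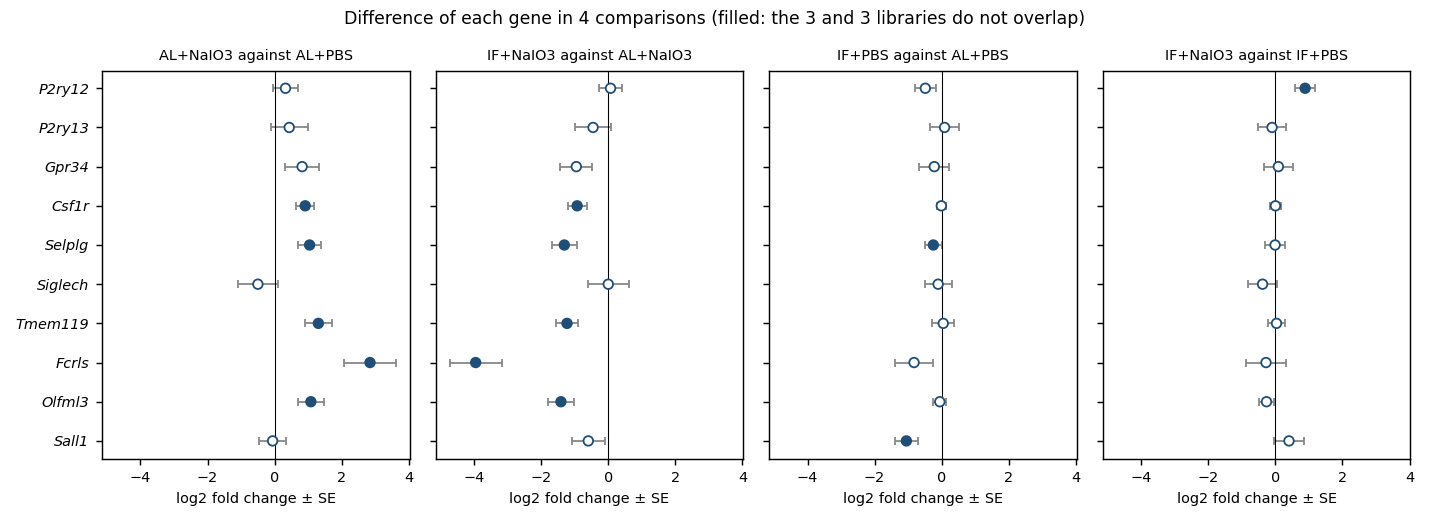
Log2 fold change of each gene with its standard error (horizontal axis) in the 4 comparisons, from edgeR fits of 6 libraries each, where filled points mark genes whose 3 and 3 libraries did not overlap. Fcrls lies at 2.84 and -3.95 in the panels that use AL + NaIO3, while P2ry12 is the only filled point in IF + NaIO3 against IF + PBS.

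Fcrls was at 0.69, 0.36 and 0.48 CPM in IF + NaIO3, and so below each AL + NaIO3 library and overlapping with both PBS groups. The log2 fold change was -3.95 (SE 0.78, adjusted p = 0.168). In a fit of the 12 libraries together it fell by 3.93 on the log2 scale and passed the test (adjusted p = 0.0217), as did 1.19% of all genes. With AL + NaIO3 replicate 3 left out of that fit the difference was -2.64 (SE 0.56, adjusted p = 0.0489), with 0.758% of all genes called. In AL + NaIO3 against AL + PBS, the fit of the 12 libraries called 0 of the 10 genes, against 1.11% of all genes.

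Olfml3 was at 5.93, 6.44 and 5.03 CPM in IF + NaIO3 (log2 fold change -1.41, SE 0.39, adjusted p = 0.266) and Selplg at 2.53, 3.25 and 2.17 CPM (log2 fold change -1.31, SE 0.38, adjusted p = 0.287). Tmem119 was at 3.60, 3.55 and 3.27 CPM (log2 fold change -1.23, SE 0.33, adjusted p = 0.253) and Csf1r at 23.7, 17.05 and 22.8 CPM (log2 fold change -0.93, SE 0.28, adjusted p = 0.302). In each of the 4 genes every IF + NaIO3 library was below every AL + NaIO3 library. DESeq2 called 4 of the 10 genes as lower, against 3.06% of all genes: Fcrls (adjusted p = 3.49e-06), Olfml3 (0.0194), Tmem119 (0.0219) and Selplg (0.0422). Without AL + NaIO3 replicate 3 it called 1 of the 10, Fcrls (adjusted p = 0.00011), against 1.73% of all genes. In the fit of 11 libraries the differences of the other 4 genes were -0.84 for Olfml3 (adjusted p = 0.117), -0.97 for Selplg (adjusted p = 0.181), -0.87 for Tmem119 (adjusted p = 0.288) and -0.56 for Csf1r (adjusted p = 0.224).

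The other 5 genes overlapped between these groups. P2ry12 was at 3.42, 5.01 and 3.07 CPM in IF + NaIO3, with a log2 fold change of 0.07 (SE 0.35, adjusted p = 0.948). P2ry13 was at 1.06, 1.65 and 1.58 CPM and Siglech at 1.35, 1.51 and 0.59 CPM, with log2 fold changes of -0.45 (SE 0.53) and 0.0014 (SE 0.61). The difference of Siglech was -0.05 under upper quartile scaling. Gpr34 was at 1.24, 1.71 and 2.62 CPM and Sall1 at 1.35, 0.74 and 1.76 CPM, with log2 fold changes of -0.95 (SE 0.47) and -0.59 (SE 0.48). The adjusted p of these 5 genes was at least 0.483.

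IF + PBS was compared with AL + PBS to see the diet without injury. None of the 10 genes and none of 15361 genes (0.0%) passed the edgeR test, and DESeq2 called 0 of the 10, against 1.33% of all genes. At an unadjusted p under 0.05 there was 1 of the 10, against 17.1% of all genes. This gene was Sall1, at 1.12, 0.94 and 0.84 CPM in IF + PBS and so below each AL + PBS library (log2 fold change -1.06, SE 0.33, adjusted p = 0.196). Selplg, at 2.18, 2.90 and 2.94 CPM in IF + PBS, was also below each AL + PBS library, with a smaller difference (log2 fold change -0.25, SE 0.25, adjusted p = 0.63), and 11.3% of all genes stood lower in this way. The summed CPM of 10 genes of stroma and sclera was between 88.8 and 150 in IF + PBS and between 176 and 254 in AL + PBS, and its part in the difference of Sall1 was not tested. The other 8 genes overlapped between the diets. In IF + PBS, Csf1r was at 18.2, 25.3 and 20.1 CPM, Olfml3 at 5.47, 7.29 and 8.18 CPM and Tmem119 at 3.04, 3.09 and 4.06 CPM. Gpr34 was at 1.63, 1.04 and 2.54 CPM, P2ry13 at 1.76, 1.99 and 0.87 CPM and Siglech at 1.66, 1.63 and 1.24 CPM in that group. The median log2 fold change of the 10 genes was -0.17.

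IF + NaIO3 was compared with IF + PBS for the injury in fasted mice. None of the 10 genes and none of 15305 genes (0.0%) passed the edgeR test, and DESeq2 called 0 of the 10, of which it gave an adjusted p to only 1, and 0.723% of all genes with an adjusted p. At an unadjusted p under 0.05 there was again 1 of the 10, against 15.2% of all genes. P2ry12, at 1.95, 1.92 and 2.36 CPM in IF + PBS, was higher in each IF + NaIO3 library (log2 fold change 0.89, SE 0.29, adjusted p = 0.226), and 10.6% of all genes stood higher in this way. Fcrls, at 0.35, 0.42 and 1.08 CPM in IF + PBS, overlapped with IF + NaIO3 (log2 fold change -0.28, SE 0.59). Tmem119 (0.03, SE 0.24), Csf1r (0.0030, SE 0.17) and Selplg (-0.0081, SE 0.29) had log2 fold changes near 0, and the sign of Csf1r turned under upper quartile scaling (-0.01). The median of the 10 genes was -0.0026.

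Whether the effect of NaIO3 differed between diets was tested as an interaction over the 12 libraries. None of the 10 genes passed, against 0.0313% of all genes (5 of 15970), and DESeq2 called 0 of the 10, against 1.42% of all genes. At an unadjusted p under 0.05 there were 5 of 10, against 12% of all genes. The interaction was -3.11 for Fcrls (SE 0.99, adjusted p = 0.289), -1.33 for Olfml3 (SE 0.45, adjusted p = 0.318), -1.26 for Tmem119 (SE 0.47, adjusted p = 0.351), -1.04 for Selplg (SE 0.44, adjusted p = 0.391) and -0.90 for Csf1r (SE 0.33, adjusted p = 0.346), on the log2 scale. That of P2ry12 had the other sign, at 0.57 (SE 0.47, adjusted p = 0.625). Without AL + NaIO3 replicate 3 the interaction was smaller for these 5 genes, at -1.82 for Fcrls (SE 0.77), -0.78 for Olfml3 (SE 0.30), -0.91 for Tmem119 (SE 0.42), -0.72 for Selplg (SE 0.39) and -0.54 for Csf1r (SE 0.24). In that fit their adjusted p lay between 0.384 and 0.523, and 0.199% of all genes were called. A difference between diets in the effect of NaIO3 was thus not shown for any of the 10 genes.

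The genes that microglia share with other macrophages had larger fitted differences than the 10 homeostatic genes in both comparisons that use AL + NaIO3 libraries of freely fed mice. The 20 shared genes, among them Ctss and Lyz2, had a median difference of 2.45 on the log2 scale in AL + NaIO3 against AL + PBS and -2.53 in IF + NaIO3 against AL + NaIO3. Of the 20, 0 passed the edgeR test in either comparison, while 20 and 19 had an unadjusted p under 0.05, and DESeq2, which gave 19 of them an adjusted p, called 18 as higher and 17 as lower. Without AL + NaIO3 replicate 3, in the fit of 11 libraries, the medians were 1.69 and -1.74, and edgeR called 8 as higher and 9 as lower. Their summed CPM was between 103 and 121 in AL + PBS, between 94.4 and 111 in IF + PBS and between 98.9 and 120 in IF + NaIO3, with the values of AL + NaIO3 given above. The summed CPM of the 10 homeostatic genes was 77.2, 57.7 and 136 in AL + NaIO3, between 44.0 and 49.7 in AL + PBS, between 37.4 and 46.5 in IF + PBS and between 41.3 and 44.9 in IF + NaIO3. The mean in AL + NaIO3 was 1.95 times that of AL + PBS for the homeostatic sum and 6.06 times for the shared sum. Without replicate 3 these ratios were 1.46 and 2.87.

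As a percentage of the shared sum, the homeostatic sum was lower in the injured, freely fed mice, while both sums were higher there in CPM. It was 19.8%, 22.1% and 9.64% in AL + NaIO3 and between 37.3% and 43.9% in the other 9 libraries, with no overlap also for replicates 1 and 2 alone. Lyz2, a lysozyme of macrophages and neutrophils, took 578 CPM in AL + NaIO3 replicate 3. With Lyz2 left out of the shared sum the percentages were 22.7%, 25.5% and 16.4% in AL + NaIO3 and between 40.8% and 48.5% in the other 9 libraries. Csf1r was the largest part of the homeostatic sum, at 4.13% to 10.4% of the shared sum in AL + NaIO3 against 16.5% to 23.1% elsewhere. Taken singly, 7 of the 10 genes had a lower percentage in each AL + NaIO3 library than in the other 9, while 3 (Tmem119, Siglech and Fcrls) overlapped. Fcrls, at 0.83% to 1.23% against 0.35% to 1.23%, was not lower. Of all 15970 genes tested over the 12 libraries, 81.8% were lower in this way, because the shared sum itself was higher in AL + NaIO3, so the count of 7 is no result about these genes and a lower percentage does not mean a lower level. The percentage is a ratio of RNA levels and was not tested.

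**Figure D3:**
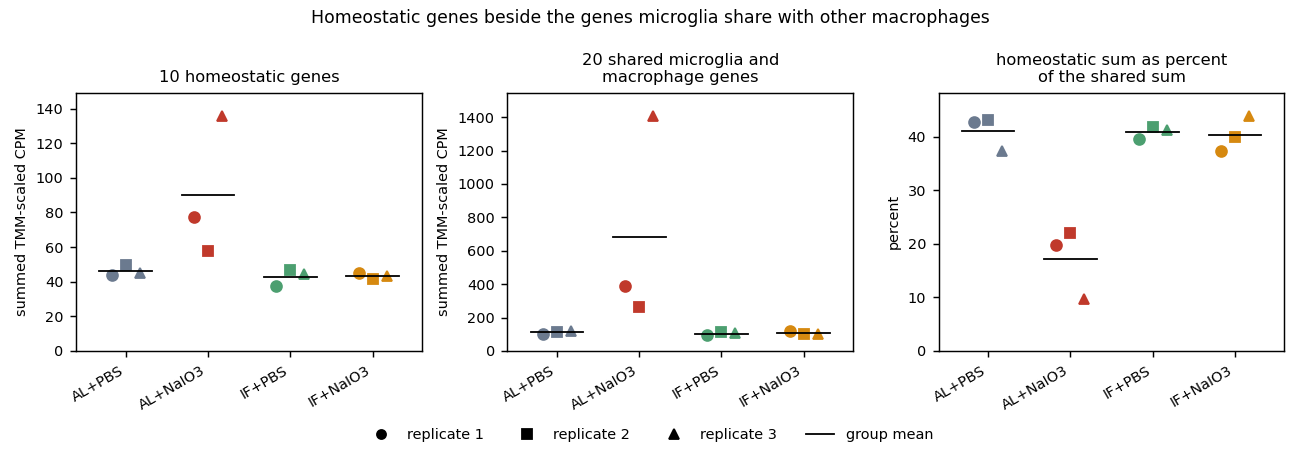
Summed TMM-scaled CPM of the 10 homeostatic genes (left) and of 20 genes shared by microglia and macrophages (middle), and the first as a percentage of the second (right), in each of the 12 libraries, with group means as lines and all axes linear from 0. The percentage lay between 9.64 and 22.1 in AL + NaIO3 and between 37.3 and 43.9 elsewhere.

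Markers of other cells were summed in the same way. Over 13 lymphocyte genes, CPM was between 5.78 and 14.7 in AL + NaIO3 and between 0.90 and 2.55 elsewhere, without overlap, with Cd4, Cd8a and Cd79a the most abundant. Over 14 genes of monocytes and border macrophages, among them Fn1, Lyve1 and Cbr2, it was between 57.0 and 144 in AL + NaIO3 and between 44.0 and 58.0 in the other groups, and so overlapped. Most of that sum was Fn1 and Lyve1, and some genes at lower levels had larger fitted differences. The 3 that DESeq2 called, named after their values were seen, had edgeR log2 fold changes of 3.43 (SE 0.75) for Ly6c2, 3.24 (SE 0.95) for Ccr2 and 2.74 (SE 0.77) for Ms4a7 in AL + NaIO3 against AL + PBS. In IF + NaIO3 against AL + NaIO3 these were -5.77 (SE 1.13), -4.38 (SE 1.16) and -2.46 (SE 0.78), with levels near 0 in the lower group for Ly6c2 and Ccr2 (at most 0.10 and 0.37 CPM). Within AL + NaIO3, Ly6c2 ranged from 0.71 to 3.06 CPM, Ccr2 from 1.60 to 10.3 CPM and Ms4a7 from 2.89 to 19.7 CPM. Their fold changes are not given here without replicate 3. The medians of the genes tested were 1.30 and -0.97 for the monocyte list and 2.40 and -3.03 for the lymphocyte list. In the fit of 11 libraries without AL + NaIO3 replicate 3 they were 0.87 and -0.78, and 1.70 and -2.67. Outside AL + NaIO3 each lymphocyte gene was at 0.88 CPM or less, so the lymphocyte medians rest on levels near 0. In AL + NaIO3 against AL + PBS, edgeR called 0 genes of either list, with 3 of 6 lymphocyte and 4 of 12 monocyte genes tested at an unadjusted p under 0.05, while DESeq2 called 2 and 3 as higher. Without AL + NaIO3 replicate 3, DESeq2 called 1 gene of each list, and the fit of 11 libraries called 0, with 1 of 8 lymphocyte and 3 of 12 monocyte genes at an unadjusted p under 0.05. In IF + NaIO3 against AL + NaIO3, edgeR called 0 of either list, 5 of 6 lymphocyte and 4 of 12 monocyte genes were lower and 1 monocyte gene higher at an unadjusted p under 0.05, and DESeq2 called 2 and 3 as lower. Without replicate 3 DESeq2 called 1 of each as lower there, and the fit of 11 libraries 1 monocyte gene. Over 9 neutrophil genes, summed CPM was between 14.7 and 17.9 in AL + NaIO3 and between 12.9 and 18.3 elsewhere, most of it Mmp9, and Ly6g had at most 3 counts in every library. Over 9 genes of plasmacytoid dendritic cells, most of it Pacsin1, a gene also used by neurons, it was between 235 and 278 in AL + NaIO3 and between 205 and 293 elsewhere, and Klk1 was at 0 in every library. Over the 5 genes tested, the median was 0.21 in AL + NaIO3 against AL + PBS and -0.68 in IF + NaIO3 against AL + NaIO3. At an unadjusted p under 0.05, 2 were higher in the former and 3 lower in the latter. The edgeR test called 0, while DESeq2 called 1 as higher and 2 as lower. Without AL + NaIO3 replicate 3, DESeq2 called 0 and 2, and the fit of 11 libraries 0 in each. How much of the 10 genes' levels came from such cells was not tested.

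The 18 genes of signals and factors that maintain microglia had a median difference of 0.48 on the log2 scale in AL + NaIO3 against AL + PBS and -0.57 in IF + NaIO3 against AL + NaIO3. Of the 18, 0 passed the edgeR test in either comparison and 8 had an unadjusted p under 0.05 in each, all higher in AL + NaIO3, while DESeq2 called 4 in each. Without replicate 3, in the fit of 11 libraries, the medians were 0.20 and -0.11, and edgeR called 1 gene in each. At an unadjusted p under 0.05, 5 genes were then higher and 2 lower in AL + NaIO3 against AL + PBS. In IF + NaIO3 against AL + NaIO3, 4 were lower and 0 higher. The most abundant were Mef2c, Nt5e and Itgb8, which are also used by neurons, photoreceptors or glia, with log2 fold changes of -0.43 (SE 0.36), -0.44 (SE 0.30) and 0.18 (SE 0.39) after NaIO3 in freely fed mice. The ligands of Csf1r and the gene of PU.1 are given here although they were chosen after their values were seen. Csf1 had a log2 fold change of 1.20 (SE 0.37, adjusted p = 0.327) in AL + NaIO3 against AL + PBS, Il34 one of 0.13 (SE 0.25, adjusted p = 0.905) and Spi1, which encodes PU.1, one of 2.47 (SE 0.67, adjusted p = 0.286). In IF + NaIO3 against AL + NaIO3 the values were -1.51 (SE 0.35) for Csf1, -0.18 (SE 0.25) for Il34 and -2.41 (SE 0.51) for Spi1. Within AL + NaIO3, Csf1 ranged from 11.5 to 29.1 CPM, Il34 from 6.11 to 8.47 CPM and Spi1 from 2.45 to 8.73 CPM. The fold changes of these genes are not given here without replicate 3.

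The list of disease-associated microglia, genes of the phagocytic state that follows the homeostatic one, gave, over the 16 of its 17 genes that had a row in the table, a median log2 difference of 1.04 in AL + NaIO3 against AL + PBS and -1.19 in IF + NaIO3 against AL + NaIO3, close in size to the medians of the homeostatic genes. Of the 16, 0 passed the edgeR test, while 11 and 12 had an unadjusted p under 0.05, and DESeq2 called 5 in each. Without replicate 3, in the fit of 11 libraries, the medians were 0.48 and -0.67, and edgeR called 3 as higher and 4 as lower. Its most abundant genes, Apoe, Ctsd and Ctsb, are also used by RPE and Müller cells. The list was uneven, and the genes at its ends are named after their values were seen. In AL + NaIO3 against AL + PBS, differences ran from 0.27 (SE 0.15) for Lpl to 8.12 (SE 0.996) for Cst7. Cst7 was at 0 CPM in AL + PBS. In IF + NaIO3 against AL + NaIO3 they ran from -0.14 (SE 0.15) for Lpl to -3.90 (SE 0.96) for Itgax. The 10 stroma and sclera genes, led by Dcn, Col1a2 and Col1a1, had medians of 1.17 and -1.77, and 1 and 8 of them had an unadjusted p under 0.05, with 0 called by edgeR or DESeq2. These medians rest on AL + NaIO3 replicate 3, whose summed CPM stood apart as given above, and without it they were -0.37 and -0.38. Medians were -0.55 and 0.47 for 12 photoreceptor genes (among them Gnat1 and Sag), -0.03 and -0.05 for 12 genes of inner retinal neurons (Nefl, Calb2, Trpm1), and 0.16 and -0.20 for 8 Müller cell genes (Glul, Rlbp1, Abca8a). Of these 3 lists, edgeR called 0 genes and DESeq2 at most 1 per list and comparison, and 0 to 2 genes per list had an unadjusted p under 0.05. The Müller cell gene that DESeq2 called in both was Gfap, a filament protein of reactive glia, named here after its values were seen. Its edgeR log2 fold changes were 3.34 (SE 0.48, adjusted p = 0.0873) and -3.71 (SE 0.46, adjusted p = 0.0595), with DESeq2 adjusted p of 1.25e-12 and 3.16e-18. Without replicate 3, in the fit of 11 libraries, the medians were -0.25 and 0.16 for photoreceptor genes, -0.01 and 0.04 for inner retinal neurons and -0.12 and 0.04 for Müller cell genes, so the sign turned for both Müller cell medians and for the latter one of inner retinal neurons, and edgeR called 1 Müller cell gene in each comparison. For 10 RPE genes (Ttr, Rgr, Rpe65) the medians were -0.99 and 0.54. In AL + NaIO3 against AL + PBS, 1 of the 10, the lactate transporter gene Slc16a8, fell in the edgeR test (log2 fold change -1.02, SE 0.11, adjusted p = 0.0392), 6 had an unadjusted p under 0.05, all lower, and the fold change was above 0 for 4 (Tyrp1, Pmel, Best1 and Mlana, listed after their values were seen). DESeq2 gave 8 of the 10 an adjusted p in each comparison and called 5 as lower and, in IF + NaIO3 against AL + NaIO3, 3 as higher. In the latter comparison, 4 genes were higher and 3 lower at an unadjusted p under 0.05. The 3 were Tyrp1 (-3.71, SE 1.25), Pmel (-3.32, SE 1.13) and Mlana (-1.79, SE 0.67), each further from 0 on the log2 scale than any of the 4. Without AL + NaIO3 replicate 3, in the fit of 11 libraries, 0 genes were lower and 6 higher at an unadjusted p under 0.05 in that comparison. Without replicate 3 the medians were -1.03 and 0.71, and the fit of 11 libraries called 5 as lower and 1 as higher.

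**Figure D4:**
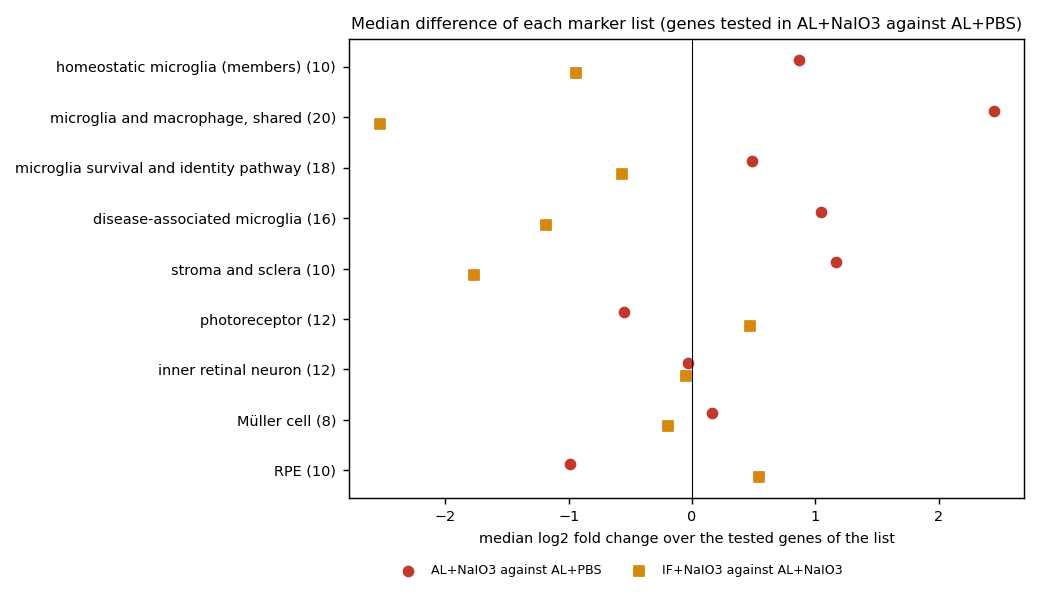
Median edgeR log2 fold change (horizontal axis) of each list for which every gene with a row in the table was tested, in AL + NaIO3 against AL + PBS (circles) and IF + NaIO3 against AL + NaIO3 (squares), with the number of genes tested in brackets. The homeostatic genes lie at 0.86 and -0.94, and the genes shared with other macrophages at 2.45 and -2.53. Both comparisons use the same AL + NaIO3 libraries.

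The mean standardized level of the 10 genes over the 12 libraries was compared with 14251 other genes that had at least 10 counts in every library. The 8 most alike were Oxct1, Fuca2, Mcl1, Sparc, Laptm5, Septin10, B2m and Fcgr3, with Pearson r between 0.946 and 0.959 over 12 libraries and between 0.872 and 0.933 without AL + NaIO3 replicate 3. Laptm5, a lysosomal membrane protein of blood cells, had means of 13.8 CPM in AL + NaIO3 and 2.56, 2.43 and 2.31 CPM in AL + PBS, IF + PBS and IF + NaIO3. B2m, the light chain of MHC class I, had means of 182 CPM against 59.9, 46.1 and 48.9 CPM. The libraries, and the one that stood apart, are shared by all these genes, so the correlation is a description.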

How the data were processed

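RNA-seq libraries of 4 groups with 3 replicates each were analysed, with 0 per-sample columns left unassigned. The authors deposited whole-number read counts per gene without normalization, and FPKM values, which the methods call RPKM, per gene length and library. Their notes name HISAT2, StringTie, DESeq2, edgeR and GRCm39, although the coordinates are those of GRCm38. The counting tool, the annotation and the use of strand are not given in the sources used here. A further deposited table holds the authors' own log2 fold changes and p-values and was not used.

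In R 4.3.3, counts were scaled by TMM factors, filtered by filterByExpr and tested with the quasi-likelihood test of edgeR 4.0.16 in fits of 6 libraries, or of 12 for the interaction, with Benjamini-Hochberg adjustment over all genes tested. A call needed an adjusted p below 0.05 and, except for the interaction, a fold change of 1.5 or more. The script was tested on simulated data. DESeq2 1.42.0, run with its own size factors, was an alternative, as were upper quartile scaling, no filter, at least 10 counts in every library, a fit of the 12 libraries, no fold threshold, a replicate block and leaving out each library. Fits without AL + NaIO3 replicate 3 were added after seeing the data. Pairs of libraries of the same group were checked for duplicates, and none was found (chi-square per gene at least 12.8). Counts set the precision of low genes, and p-values do not separate counting error from the difference between libraries.

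The 10 genes and the 12 marker lists were chosen with earlier results of these data known, as was the motif. Named are the 10 genes in every library, the called genes and the 3 most abundant of each list, the 8 genes most alike in log2 CPM (pseudocount 0.5), and overlapping genes. Genes of 2 lists that the rule would name are not reported here.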

Additional observations from a re-analysis of the deposited data

How the results depend on the processing

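Depth limits the low genes most: Siglech, P2ry13, Sall1 and Fcrls had as few as 11 to 27 counts in a library, and 3 libraries per group leave the size of small differences open. The number of the 10 genes called was 0 under edgeR with upper quartile scaling, no filter, at least 10 counts in every library or no fold threshold, in each comparison run. It was 1 with DESeq2 in AL + NaIO3 against AL + PBS and 4 in IF + NaIO3 against AL + NaIO3. In the latter it was 1 in the fit of the 12 libraries, 1 in the fit of 11 libraries without AL + NaIO3 replicate 3, and 1 with DESeq2 without that library, where 1.19%, 0.758% and 1.73% of all genes were called. The median log2 fold change in AL + NaIO3 against AL + PBS was between 0.47 and 1.12 with each library left out. The cause of these changes was not tested.

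With the replicate number as a replicate block, 0 of the 10 genes were called in each comparison, with medians of 0.85, -0.89, -0.12 and -0.0059 in the order of the comparisons above. The deviations of same-numbered libraries correlated between -0.10 and 0.14, so no clear pairing by number was seen over all genes. These correlations cannot exclude a pairing that touches only some genes. The block moved the calls over all genes from 12 to 28, from 6 to 28 and from 0 to 5 in AL + NaIO3 against AL + PBS, IF + NaIO3 against AL + NaIO3 and IF + PBS against AL + PBS.

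Of 40 fold changes, 17 changed sign in at least 1 alternative, and each of these was uncalled. Upper quartile scaling gave -0.050 for Siglech in IF + NaIO3 against AL + NaIO3 and -0.011 for Csf1r in IF + NaIO3 against IF + PBS, where the fit of the 12 libraries gave -0.0022. With each library left out, ranges that crossed 0 in AL + NaIO3 against AL + PBS were -0.25 to 0.72 for P2ry13 and -0.39 to 0.079 for Sall1. In IF + NaIO3 against AL + NaIO3 they were -0.16 to 0.30 for P2ry12, -0.74 to 0.22 for P2ry13 and -0.37 to 0.53 for Siglech. In IF + PBS against AL + PBS they were -0.17 to 0.37 for P2ry13, -0.24 to 0.27 for Tmem119, -0.40 to 0.33 for Siglech, -0.59 to 0.30 for Gpr34, -0.18 to 0.086 for Olfml3 and -0.16 to 0.081 for Csf1r. In IF + NaIO3 against IF + PBS they were -0.38 to 0.13 for P2ry13, -0.039 to 0.18 for Tmem119, -0.24 to 0.47 for Gpr34, -0.57 to 0.40 for Fcrls, -0.094 to 0.15 for Csf1r and -0.19 to 0.11 for Selplg.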
